A study of Mus musculus with 8 samples.

Results

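The tricarboxylic acid (TCA) cycle genes examined here were 9 genes chosen by name: Cs, Idh3a, Idh3b, Ogdh, Dlst, Suclg1, Fh1, Mdh2 and Dld. They are 9 of the 26180 mouse genes with a curated RefSeq transcription start site (TSS). For each gene, peaks were sought at the promoter, taken as the 1 kb before a TSS and the 100 bp after it, and in the gene body, the gene span, without the peaks that touch those windows. The series held 8 samples and 6 antibodies. All came from total epidermis (the outer layer of the skin) of newborn mice at P0.5, all were wild-type, and the labels name no transgene or treatment. The epidermis was parted from the dermis with dispase and made into single cells, and how many animals gave each library was not stated in the sources used here. MOF was mapped by ChIPseq, in which sheared chromatin is pulled down with an antibody, and Rfx2, H3K4me3 and H3K27Ac by Cut&Run, in which a nuclease tethered to the bound antibody cuts out the DNA around it. The peak lists of these 4 antibodies were analysed, with 1 library behind each list, and the libraries of H4K16Ac and H3K4me1 were not used here. The H3K4me3 list could stem from either of 2 libraries, and the MOF list may not be the final call of the study. There was therefore no group to compare, no spread between replicates and no test, and each count is a description of these libraries.

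The TCA cycle runs in the mitochondrial matrix. It oxidizes the acetyl group of acetyl-CoA to carbon dioxide and passes the electrons to NADH and FADH2, which feed the electron transport chain (ETC). Its enzymes are encoded in the nucleus and are needed in most cell types, so their promoters are of the housekeeping kind. MOF (also named KAT8) is the acetyltransferase of lysine 16 of histone H4, Rfx2 is a transcription factor that binds the X-box of many ciliary gene promoters, H3K4me3 is a mark of active promoters, and H3K27Ac a mark of active promoters and enhancers.

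All 9 genes carried H3K4me3 and H3K27Ac at the promoter. MOF was found at 4 of them, Cs, Idh3a, Ogdh and Suclg1, and was not called at Idh3b, Dlst, Fh1, Mdh2 and Dld. Rfx2 was called at 1, Mdh2. The genes thus fell into 3 kinds of promoter, those with both marks and MOF, those with both marks alone, and Mdh2 with both marks and Rfx2.

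Promoter sequences of 8 of the 9 genes were matched in RefSeq (GRCm38.p6, the assembly known as mm10), each 300 bases long, from 250 bases before the TSS to 50 bases from it on. Those of 4 genes are shown 5′ to 3′, because between them they represent the 3 kinds of promoter: Mdh2 had Rfx2, Cs and Suclg1 had MOF, and Dld had neither and the highest H3K27Ac of the 9 genes. Capitals mark CCAAT (the motif of NFY) and GGGCGG (the motif of the SP and KLF factors) on either strand, and in Mdh2 also the palindrome TCGCGA.

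Mdh2 (chr5:135778399-135778698, plus strand): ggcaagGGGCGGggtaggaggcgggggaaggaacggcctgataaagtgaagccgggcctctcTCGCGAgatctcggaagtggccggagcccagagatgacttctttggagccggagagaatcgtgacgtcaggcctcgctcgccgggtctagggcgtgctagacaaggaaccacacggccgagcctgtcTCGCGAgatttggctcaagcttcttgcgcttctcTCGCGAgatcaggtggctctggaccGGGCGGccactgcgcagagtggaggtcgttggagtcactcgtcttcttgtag

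Cs (chr10:128337477-128337776, plus strand): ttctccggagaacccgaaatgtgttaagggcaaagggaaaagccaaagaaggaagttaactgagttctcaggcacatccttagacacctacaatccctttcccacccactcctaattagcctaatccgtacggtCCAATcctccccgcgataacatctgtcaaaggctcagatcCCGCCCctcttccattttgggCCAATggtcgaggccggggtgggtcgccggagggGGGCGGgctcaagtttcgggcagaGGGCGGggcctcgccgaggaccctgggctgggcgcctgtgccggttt

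Suclg1 (chr6:73248255-73248554, plus strand): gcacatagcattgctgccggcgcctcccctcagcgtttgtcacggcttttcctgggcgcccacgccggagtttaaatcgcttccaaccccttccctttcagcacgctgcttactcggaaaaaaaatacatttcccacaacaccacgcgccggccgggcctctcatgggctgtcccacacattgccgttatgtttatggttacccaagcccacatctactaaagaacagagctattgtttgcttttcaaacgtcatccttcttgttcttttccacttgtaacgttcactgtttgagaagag

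Dld (chr12:31351422-31351721, minus strand): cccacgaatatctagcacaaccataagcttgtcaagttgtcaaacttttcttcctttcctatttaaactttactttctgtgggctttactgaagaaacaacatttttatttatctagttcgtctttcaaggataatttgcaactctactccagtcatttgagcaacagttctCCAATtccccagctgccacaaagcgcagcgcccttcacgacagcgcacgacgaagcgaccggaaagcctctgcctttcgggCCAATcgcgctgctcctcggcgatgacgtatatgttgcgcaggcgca

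The 8 promoters, all but that of Idh3a, differed in base composition and in their density of CpG. The GC share ran from 47.0% in Dld and 50.3% in Idh3b, through 51.0% in Suclg1, 54.3% in Fh1, 58.7% in Cs and 59.7% in Ogdh, to 62.7% in Mdh2 and 65.7% in Dlst, beside a median of 52.7% over 32851 promoters. The observed over expected ratio of CpG lay between 0.64 in Fh1 and 1.14 in Dld. All 8 were above the median of all promoters, 0.38, at percentiles from 66.9 to 98.9. Both medians are over promoters of genes with and without H3K4me3, whereas all 8 genes have that mark at the promoter. Promoters with MOF (Cs, Ogdh and Suclg1, ratios 0.70, 0.94 and 0.93) and without it overlapped in both measures.

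CCAAT was present in 5 of the 8 promoters, Cs, Idh3b, Ogdh, Fh1 and Dld, and in 37.4% of all promoters of this length. In Cs the motif began 116 and 55 bases upstream of the TSS, and in Dld 78 bases upstream and again just after the TSS. GGGCGG was likewise present in 5, Cs and Dlst with 3 copies each, Mdh2 with 2, and Ogdh and Fh1 with 1 each, beside 35.7% of all promoters. CCGGAAG, the motif of ETS factors, was found in Idh3b and Dlst and in 8.86% of all promoters. None of the 8 held TATAAA (the TATA box, in 13.6% of all promoters), CACGTG (the E-box, 7.15%), AAGGTCA (the motif of the ERR receptors, 4.72%) or AAGATGGCG (the YY1 motif, 1.40%). For NRF1 only a single exact sequence of 10 letters was searched, found in 0.971% of all promoters and in none of the 8. Variants of that sequence were not searched, so the 8 promoters are not shown to lack the NRF1 motif. Suclg1 held none of the motifs searched. No motif searched separated the promoters with MOF from those without. GGGCGG, for example, was in Cs and Ogdh but not in Suclg1, and in Dlst, Fh1 and Mdh2 but not in Idh3b and Dld. Both strands were searched, the motifs do not contain one another, and a match is a description of these windows. The shares of all promoters include those of genes without H3K4me3, whereas all 8 genes have that mark at the promoter.

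A promoter peak was present at 54% of the 26180 genes for H3K4me3, at 44.1% for H3K27Ac, at 23.7% for MOF and at 1.21% for Rfx2. Among the 14132 genes with H3K4me3 at the promoter, the class to which all 9 TCA cycle genes belonged, H3K27Ac was called at 79.8%, MOF at 42% and Rfx2 at 2.24%. The count of MOF at 4 of 9 genes is a share of 44.4% (exact Clopper-Pearson 95% interval 13.7% to 78.8%, for counting error over genes only), which is near the 42% of H3K4me3 genes and is not a result about the TCA cycle genes as a group. The count of Rfx2, 1 of 9, is 11.1% (0.281% to 48.2%) and rests on a single gene. The 9 of 9 for each mark has an interval of 66.4% to 100%. When the centre of the peak had to lie in the promoter window, H3K4me3 was counted at 2 of the 9 genes and H3K27Ac at 3, beside 25.5% and 26.2% of all genes.

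**Figure D1:**
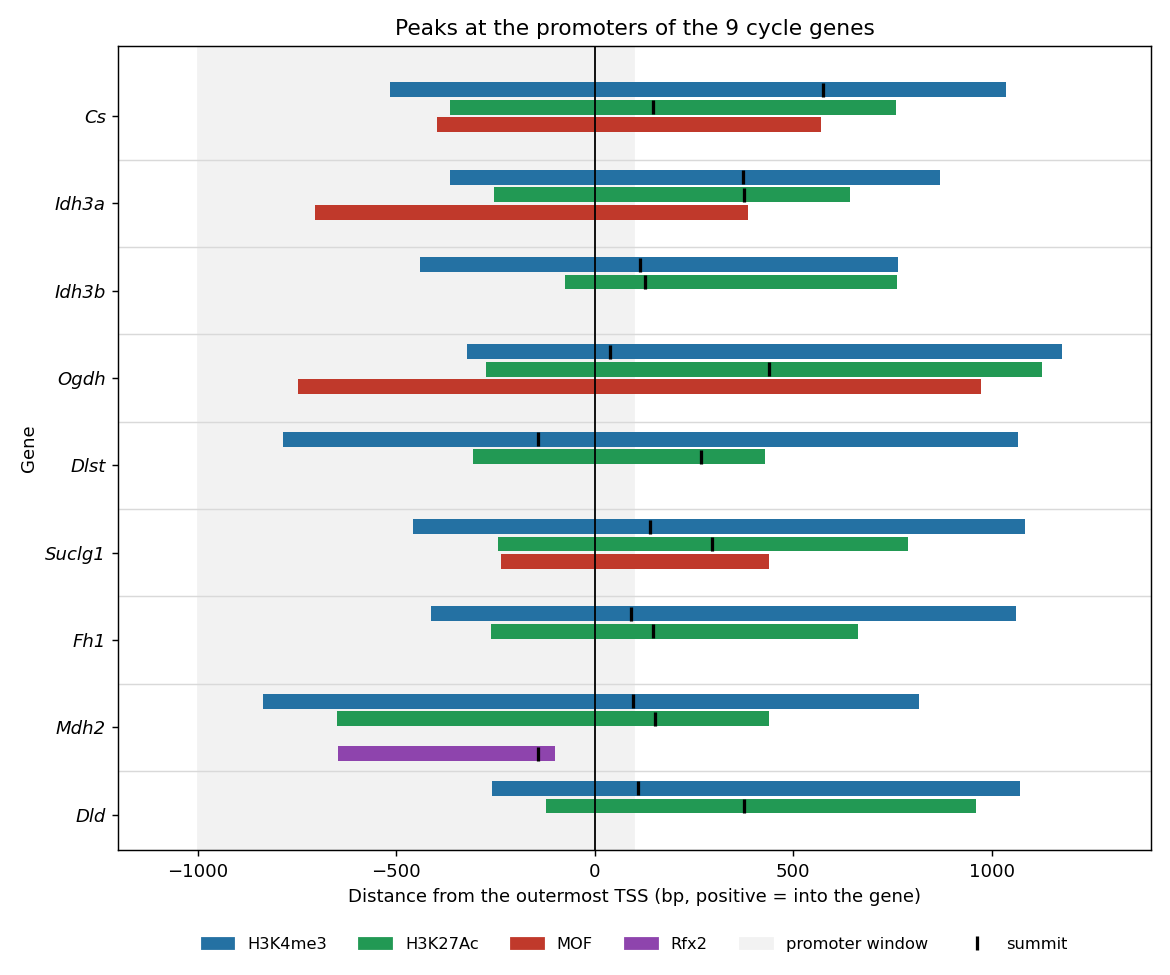
Peaks at the promoters of the 9 genes, as distance in bp from the outermost TSS (vertical line). Each bar is 1 peak of the list given by its colour, a tick is the summit (MOF peaks have none) and the grey band is the promoter window of that TSS. H3K4me3 and H3K27Ac span the TSS at all 9 genes, MOF at Cs, Idh3a, Ogdh and Suclg1, and the Rfx2 peak at Mdh2 ends 101 bp upstream of the TSS.

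The entry step of the cycle is catalysed by citrate synthase, the product of Cs (gene ID 12974, chr10:128337727-128362482, plus strand), which joins acetyl-CoA to oxaloacetate. A MOF peak of 969 bp lay over its TSS with a score of 805. The score is the value that the MOF list gives for each peak, and, because its scale was not stated, served only for ranking within that list. By this score Cs stood at the 67.4th percentile of genes with a MOF promoter peak, meaning that 67.4% of those genes had a score as high or lower. The H3K4me3 peak was 1553 bp wide with a fold enrichment of 8.06 (percentile 50.5), and the H3K27Ac peak 1127 bp wide with a fold enrichment of 7.18 (58.5). Fold enrichment is the height at the summit over the local background, as the authors' peak caller gave it. The MOF peak lay wholly inside the H3K4me3 peak, and 96.8% of it inside the H3K27Ac peak. The H3K4me3 summit was 576 bp into the gene, the farthest of the 9 genes.

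The NAD+-dependent isocitrate dehydrogenase makes oxoglutarate from isocitrate. Its catalytic subunit is encoded by Idh3a (gene ID 67834, chr9:54586511-54604662, plus strand) and a further subunit by Idh3b (gene ID 170718, chr2:130279309-130284451, minus strand). The MOF peak at Idh3a was 1092 bp wide with a score of 620 (percentile 43.4), and its centre was 160 bp upstream of the TSS, whereas the other 3 MOF peaks were centred 87 to 112 bp downstream of the outermost TSS. Only 68.9% of it lay in the H3K4me3 peak and 58.8% in the H3K27Ac peak, the least of the 4 genes with MOF. Idh3a had H3K4me3 at 10.1-fold (percentile 76.5) and H3K27Ac at 7.18-fold (58.4). Idh3b lacked a MOF call, the closest MOF peak being 67.6 kb from its TSS. Its H3K4me3 fold enrichment was 11.97 (90.5), the highest of the 9 genes, over 1205 bp, the narrowest. Its H3K27Ac reached 6.97 (54.7). Idh3g, the gene of the remaining subunit, had no MOF either and H3K4me3 at 7.01-fold (35.3), so the H3K4me3 of the genes without MOF lay on both sides of that of Idh3a.

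The oxoglutarate dehydrogenase complex, which makes succinyl-CoA, has its E1 subunit from Ogdh (gene ID 18293, chr11:6291597-6359094, plus strand), its E2 subunit from Dlst (gene ID 78920, chr12:85110833-85134091, plus strand) and its E3 subunit from Dld (gene ID 13382, chr12:31331562-31351471, minus strand). The E3 subunit is shared with the pyruvate dehydrogenase complex. Ogdh had the highest MOF score of the 9 genes, 1456 over 1721 bp, which ranked 798 of 17546 peaks and stood at the 95.9th percentile of genes. It is also the longest of the genes, with 6 curated TSSs, and a noncoding gene on the other strand, Gm46270, starts 93 bp from the nearest of them and counted as carrying the same MOF peak. H3K4me3 at Ogdh was 8.06-fold (percentile 50.3), at the middle of the genes with an H3K4me3 promoter peak, and H3K27Ac was 8.50-fold (78.2). Neither Dlst nor Dld had MOF, the nearest peaks being 30.0 kb and 55.8 kb from their TSSs. Dlst had the lowest H3K4me3 fold enrichment of the 9, 7.47 (42.3), over the widest peak, 1853 bp, and H3K27Ac at 7.79 (68.9) over the narrowest, 737 bp. It was the single gene whose H3K4me3 summit lay upstream of the outermost TSS, by 143 bp, and a predicted start of Prox2 lies on the other strand 52 bp from the Dlst TSS. Dld had H3K4me3 at 11.2-fold (85.8) and the highest H3K27Ac of the 9, 10.5-fold (93.3). The 3 genes of 1 complex thus included the highest MOF score, the lowest H3K4me3 and the highest H3K27Ac.

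The alpha subunit of succinyl-CoA synthetase, the step that yields a nucleoside triphosphate, is encoded by Suclg1 (gene ID 56451, chr6:73248505-73276907, plus strand). Its MOF peak was the narrowest and lowest of the 4, 677 bp with a score of 579 (percentile 38.1), and lay wholly inside both marks. H3K4me3 was 8.60-fold (58.3) and H3K27Ac 8.57-fold (78.9). Fumarase is encoded by Fh1 (gene ID 14194, chr1:175601378-175625635, minus strand) and hydrates fumarate to malate. Fh1 had H3K4me3 at 8.32-fold (54.0) and the lowest H3K27Ac of the 9, 6.92-fold (53.5). It was also the most isolated from MOF: the nearest MOF peak was 255 kb away, at the promoter of Exo1, and none lay within 100 kb.

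Mdh2 (gene ID 17448, chr5:135778649-135790386, plus strand) encodes the mitochondrial malate dehydrogenase, which regenerates oxaloacetate. It was the single TCA cycle gene with Rfx2. The peak, chr5:135778001-135778548, was 548 bp wide with a fold enrichment of 7.01 and a −log10 q-value of 5.86. In height it was ordinary for its list, rank 174 of 337 with a list median of 7.08, while in width it stood at the 96.5th percentile of genes with an Rfx2 promoter peak (median width of the list, 246 bp). Its summit lay 144 bp upstream of the Mdh2 TSS, beside a median of 143 bp upstream over 221 genes with 1 TSS and 1 Rfx2 peak. On the other strand Styxl1, a phosphatase-like gene, has a curated TSS 264 bp from that of Mdh2, and the Rfx2 summit lay 120 bp from it. The peak overlapped the promoter windows of both genes, so it cannot be assigned to either of them from these data. It lay wholly inside the H3K4me3 peak (1653 bp, 8.16-fold, percentile 51.8) and the H3K27Ac peak (1090 bp, 8.26-fold, 75.3) of the shared promoter. No MOF peak was called there, and the nearest, with a score of 686, began 15.1 kb downstream, 3.35 kb past the end of the gene. Of the 317 genes with Rfx2 at the promoter, 206 had MOF as well and 111, Mdh2 and Styxl1 among them, did not.

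The 548 bp of the Rfx2 peak held no match to the X-box and none to GTTGCC, the core of its arms, on either strand. GTTGCC was found in 1 of the 8 member promoters, Fh1, and in 12.5% of all promoters. The palindrome TCGCGA, looked for after the Mdh2 sequence shown above had been read, occurred 3 times in that promoter, beginning 188, 61 and 27 bases upstream of the TSS. The first of these lies inside the Rfx2 peak and the others between the peak and the TSS. The palindrome was absent from the other 7 member promoters and present in 2.5% of all promoters, in 4.89% of those of genes with H3K4me3 and in 9.19% of those of genes with Rfx2. At least 3 copies were found in 13 of the 32851 promoters. This choice followed the sequence, so these shares are descriptions only.

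The heights of the marks at the TCA cycle genes were near or somewhat above those of other marked promoters. H3K4me3 ranged from 7.47 to 11.97-fold with a median of 8.32, beside a median of 8.04 (interquartile range 6.18 to 10) over the 14132 genes with a peak. H3K27Ac ranged from 6.92 to 10.5-fold with a median of 7.79, beside 6.72 (5.27 to 8.24). All 9 genes were above the H3K27Ac median of the genes with that peak, and 8 of the 9, all but Dlst, above that of H3K4me3, where Cs and Ogdh, both at 8.06, were closest to it. The median percentile of the 9 genes was 54.0 for H3K4me3 and 68.9 for H3K27Ac, and that of the 4 genes with MOF was 55.4 for the MOF score. By significance the H3K4me3 peaks stood higher, with a median −log10 q-value of 63.6 beside 47.5 over all genes with the peak, and a median width of 1500 bp beside 1319 bp. For H3K27Ac the values were 17.5 beside 15.2, and 1035 bp beside 907 bp. These quantities share 1 library per mark.

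**Figure D2:**
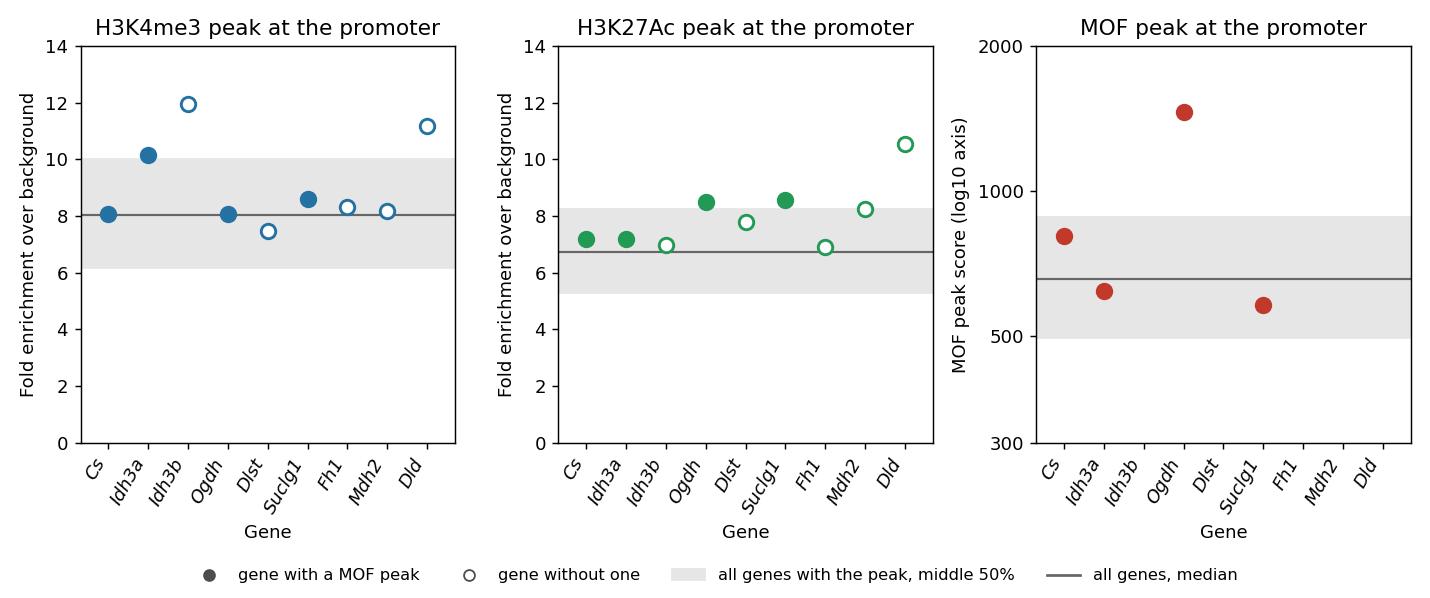
Height of the promoter peak at each of the 9 genes, as fold enrichment for H3K4me3 and H3K27Ac and as score on a log10 axis for MOF. Filled points are genes with a MOF peak and open points genes without one, the line is the median and the grey band the interquartile range of all genes with the peak. Filled and open points overlap in both marks, and Ogdh stands above the other 3 MOF scores with 1456.

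The genes with and without MOF did not separate by either mark. H3K4me3 was 8.06 to 10.1-fold at the 4 genes with MOF (median 8.33) and 7.47 to 11.97-fold at the 5 without (median 8.32). H3K27Ac was 7.18 to 8.57-fold (median 7.84) and 6.92 to 10.5-fold (median 7.79). The highest and lowest H3K4me3 (Idh3b and Dlst) and the highest and lowest H3K27Ac (Dld and Fh1) were all at genes without MOF. H3K27Ac peaks were 900 to 1402 bp wide with MOF and 737 to 1090 bp wide without, so the ranges overlapped there too. Over all genes with H3K4me3, those with MOF had the nearly the same median H3K4me3 fold enrichment as those without (8.06 and 8.02) with a higher median −log10 q-value (54.6 and 40.5), and a median H3K27Ac of 7.20 and 6.35-fold. At the TCA cycle genes the median H3K4me3 −log10 q-value was 61.4 with MOF and 67.8 without, and the 4 values with MOF lay within the range of the 5 without.

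The H3K27Ac peak lay wholly inside the H3K4me3 peak at all 9 genes, and both covered the outermost TSS at all 9. At the 8 genes with 1 TSS, all but Ogdh, H3K27Ac summits were downstream of it at 8 of 8, by 126 to 376 bp with a median of 209 bp. Over 8634 genes with 1 TSS and 1 such peak, 59.7% of the summits were downstream and the median was 66 bp. H3K4me3 summits were downstream at 7 of 8 genes, with a median of 111.5 bp, beside 63.1% and 91.5 bp over 10682 genes. At Ogdh the H3K27Ac summit had 3 of the 6 TSSs on either side, and the H3K4me3 summit had 2 before it and 4 after. MOF peaks covered the TSS at 3 of 3 genes with 1 TSS, beside 85.7% of 4848 genes.

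Gene bodies held few further peaks. Cs carried MOF, H3K4me3 and H3K27Ac there, and Ogdh carried H3K27Ac. The other 7 genes had none from any list, and Rfx2 was in no gene body (0 of 9, which allows a share of up to 33.6%). The counts were thus 1 of 9 for MOF, 1 of 9 for H3K4me3 and 2 of 9 for H3K27Ac. Among 9046 genes with H3K4me3 at the promoter and a span within the range of the TCA cycle genes (5.143 to 67.498 kb), gene-body peaks were called in 18.6% for MOF, 0.265% for Rfx2, 23.9% for H3K4me3 and 27.6% for H3K27Ac. The counts are too few to place the 9 genes above or below those shares.

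**Figure D3:**
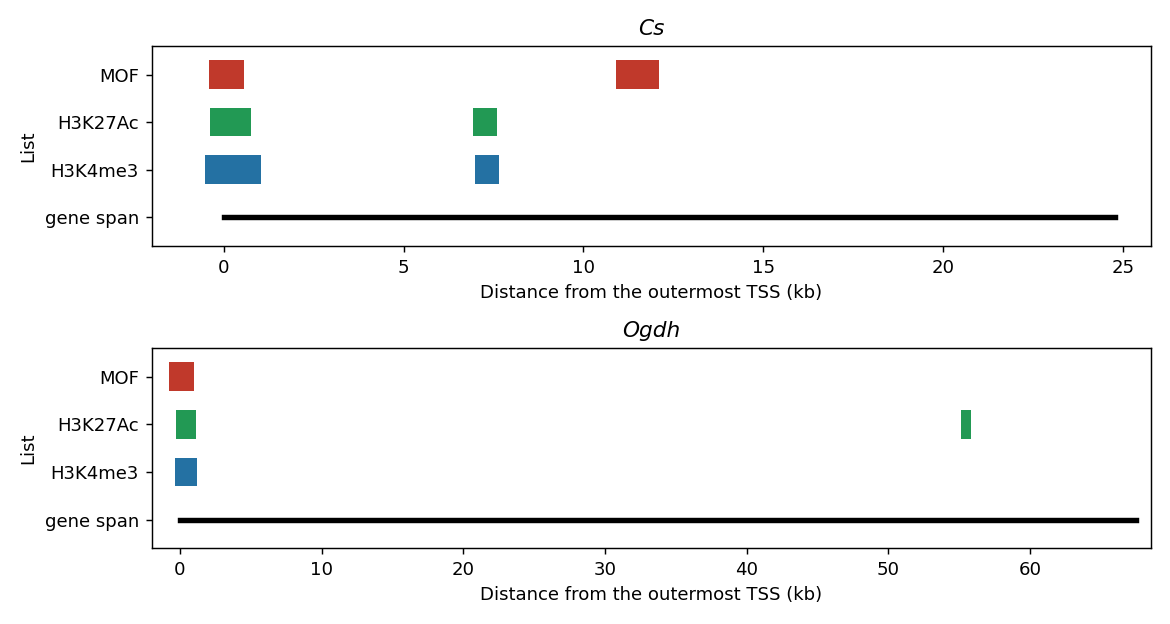
Peaks of H3K4me3, H3K27Ac and MOF along Cs (upper panel) and Ogdh (lower panel), as distance in kb from the outermost TSS, with the gene span as a black line. In Cs the marks near 7 kb are separate from the MOF peak at 11509 bp. In Ogdh the H3K27Ac peak at 55523 bp stands alone.

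Within Cs the marks and MOF lay at different places. The H3K4me3 peak of 663 bp (chr10:128344710-128345372, 9.32-fold) and the H3K27Ac peak of 674 bp (chr10:128344657-128345330, 4.55-fold) had their summits 7306 and 7316 bp downstream of the TSS, in the first intron. A predicted noncoding gene on the minus strand, Gm51822, starts 375 bp from the H3K4me3 summit, and its annotated length of 8270 bases runs back across the Cs promoter. In fold enrichment this H3K4me3 peak exceeded that of the Cs promoter, 9.32 beside 8.06, while its −log10 q-value was lower, 20.4 beside 66.2. The MOF peak of 1193 bp (chr10:128348640-128349832, score 594) was centred 11509 bp downstream of the TSS, in an intron, and overlapped 1 exon of Cs. A predicted small RNA gene, Gm23182, starts 5 bp from its centre. Neither histone mark was called there, which made it the single MOF peak in a TCA cycle gene without them. In Ogdh the H3K27Ac peak of 708 bp (chr11:6346731-6347438, 6.83-fold) had its summit 55523 bp from the outermost TSS and overlapped 1 exon, with no annotated start of another gene at it.

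The rest of the pathway was examined through a list of 40 genes of the cycle and of the reactions that feed or leave it. H3K4me3 was at the promoter of 38 of them, all but Csl and Pdha2, and H3K27Ac at 37. MOF was at 21, or 21 of the 38 with H3K4me3 (55.3%, interval 38.3% to 71.4%, which includes the 42% of all such genes). Among the 9 other genes of the cycle, MOF was at 5, among them Sucla2, a subunit of succinyl-CoA synthetase (score 774), and Sdha (1160), Sdhc (572) and Sdhd (603), subunits of succinate dehydrogenase. With the members, MOF was at 9 of 18 cycle genes (50%, interval 26.0% to 74.0%). By the genes of each enzyme, MOF was at 1 of 3 for oxoglutarate dehydrogenase (Ogdh), 1 of 3 for NAD+-dependent isocitrate dehydrogenase (Idh3a, and neither Idh3b nor Idh3g), 2 of 3 for succinyl-CoA synthetase (Suclg1 and Sucla2, which form the ATP-linked enzyme, and not Suclg2 of the GTP-linked one), 3 of 4 for succinate dehydrogenase (all but Sdhb) and, at the entry to the cycle, 3 of 5 for pyruvate dehydrogenase (Pdhb, Dlat and Pdhx, and neither Pdha1 nor Dld).

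**Figure D4:**
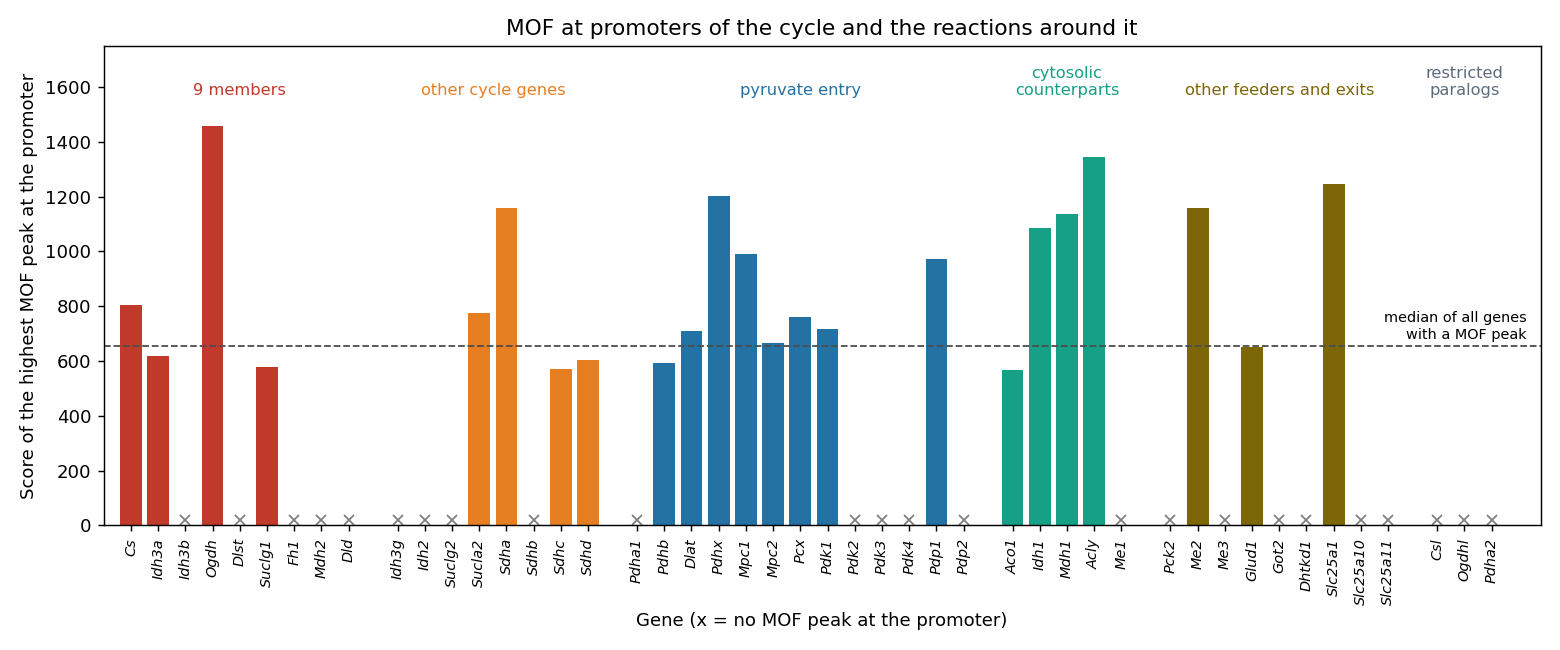
Score of the highest MOF peak at the promoter of the 9 members and of 38 of the 40 other genes listed, grouped by role. A bar is a gene with a MOF peak, a cross a gene without one, and the dashed line the median score of all genes with a MOF promoter peak, 656. Bars and crosses stand side by side in every group but the restricted paralogs, which hold crosses only.

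Enzymes that carry out like reactions in the cytosol could be set beside the mitochondrial ones. Mdh1, the cytosolic malate dehydrogenase, had MOF at the promoter (score 1135) and no Rfx2. The promoter that Mdh2 shares with Styxl1 had Rfx2, which cannot be assigned to either gene, and no MOF. Rfx2 was called at only 2.24% of all genes with H3K4me3 at the promoter. Aco1 (567), Idh1 (1084) and Acly (1343), which cleaves citrate, had MOF at the promoter too, and Me1, the cytosolic malic enzyme, had it in the gene body alone. Of 13 genes of pyruvate entry, 8 had MOF at the promoter (61.5%, interval 31.6% to 86.1%). Of 10 other feeders and exits 4 had it (40%, interval 12.2% to 73.8%), Me2, Glud1 and Slc25a1 among them. For the cytosolic genes it was 4 of 5 (80%, interval 28.4% to 99.5%). Each interval includes the 42% of all genes with H3K4me3 at the promoter. None of the 3 paralogs restricted to other tissues, Csl, Ogdhl and Pdha2, had MOF there. Ogdhl, a relative of Ogdh, had H3K4me3 at the promoter at 13.5-fold and H3K27Ac in the gene body alone, whereas Ogdh had both at the promoter. Rfx2 was at 1 of the 40, Mpc2, a subunit of the mitochondrial pyruvate carrier (6.29-fold), where MOF was called as well with a score of 666.

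Markers of the cells in the sample were read in the same way. Of 9 keratinocyte genes, 6 had H3K4me3 at the promoter and 5 H3K27Ac, beside 54% and 44.1% of all genes. Krt1 and Krt10, keratins of the differentiated layers, had both marks in the gene body and not at the promoter. The promoter window ends 100 bp after the TSS, so a gene-body peak can begin just past it. Itga6, an integrin of the basal layer, lacked H3K4me3 at the promoter but had H3K27Ac there, and it had both marks in the gene body. MOF was at the promoter of 1 of the 9 (11.1%, interval 0.281% to 48.2%), beside 23.7% of all genes. That gene was Krt14, a keratin of the basal layer. In the gene body MOF was at 3 genes, Krt14, Trp63 and Itga6. The markers are too few to be placed above or below the shares of all genes. Of the genes of other cells, H3K4me3 was at Pmel (1 of 3 melanocyte genes) and at Col1a2 and Pdgfra (2 of 3 fibroblast genes, both with MOF and without H3K27Ac), and at none of the Langerhans cell and endothelial genes. In the gene body, both marks were at Dct (melanocytes), H3K4me3 at Col1a1 (fibroblasts), and both marks and MOF at Pecam1 (endothelium). In a mixed tissue a peak cannot be assigned to 1 cell type, and the part of these cells in the peaks of the TCA cycle genes was not tested.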

How the data were processed

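Reads were aligned to mm10 with Bowtie2 (very sensitive, local), and peaks were called for each library with MACS2 by the authors, on single-end reads without a fragment model for MOF and on whole fragments for the Cut&Run libraries. Whether a control library was used is not given in the sources used here. In the deposited lists of Rfx2, H3K4me3 and H3K27Ac each peak had a summit, a score, a fold enrichment, a −log10 p-value and a −log10 q-value. The MOF list held regions with a score only. Its length exceeds the number of MOF peaks stated by the study, so it may be a different or less filtered call, on which all MOF counts here depend. The H3K4me3 list is filed under the repeat library but is not named as a repeat, so it could stem from either of the 2 H3K4me3 libraries. The lists held 17546 MOF, 337 Rfx2, 27039 H3K4me3 and 30736 H3K27Ac peaks. The lists hold no read numbers, the depths stated by the study were not used here, and intervals cover counting error over genes only.

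TSSs were those of curated RefSeq transcripts of GRCm38.p6. A gene had a peak when it overlapped the window by at least 1 bp, and a gene-body peak overlapped the gene span and none of the gene's promoter windows. The highest promoter peak of each list gave the height of a gene, and heights were compared within 1 list only. Overlap calls were tested on simulated data and differed from those of bedtools (2.31.1) in 0 of 12197 pairs. Python 3.11.15 was used. The members, the pathway list, the markers and the motifs were chosen with earlier results of these data known. All 9 members, genes starting within 1 kb on the other strand and the listed pathway genes were to be named, of which 2 are counted but not reported here by themselves. Alternatives were other promoter windows, TSS sets, overlap rules, the higher 50% of each list and other measures of height. The higher 50% was taken by −log10 q-value, or by score for MOF, and not by fold enrichment. H3K4me1 and H4K16Ac were not analysed here.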

Additional observations from a re-analysis of the deposited data

How the results depend on the processing

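No paired analysis was possible because there was only 1 list of peaks per antibody, and leaving out a replicate was not possible for the same reason. Of 79 alternatives, 63 left a count of genes within 1.5 times its value, or a median percentile inside the exact 95% binomial interval of its value over all genes with the peak, and 16 did not. That interval narrows with the number of genes, so it is narrower for H3K4me3 than for MOF. It does not measure the spread of the median over the members, so the split of 63 and 16 is not a measure of robustness. MOF was at 4 members under each of 5 other windows or sets of TSSs, and at 3, without Suclg1, when the peak centre had to lie in the window or when the higher 50% of the list was used. Requiring the peak centre in the window left H3K4me3 at 2 members and H3K27Ac at 3, and at 20 and 23 genes of the pathway list, since the peaks reach downstream and their centres pass the 100 bp limit. By construction the same rule put more promoter peaks in gene bodies: 2 members for MOF, 7 for H3K4me3 and 7 for H3K27Ac. With the higher 50% of each list by −log10 q-value, Rfx2 was at 0 members and 0 genes of the pathway list. H3K4me3 was then in the gene body of 0 members. The median percentile of the members became 50.9 for MOF by width. For H3K4me3 it became 79.5 by significance, 63.0 by width and 54.9 by the peak nearest to the TSS, and for H3K27Ac 59.6 by significance and 62.1 by width. The significance alternative was not run for MOF, whose list holds a score only. Depth could not be read from the lists, so a promoter without a called peak is not shown to lack the protein.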
